A study of Mus musculus with 16 samples.

Results

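Oxidative phosphorylation (OXPHOS) subunits are the proteins of the respiratory chain and the ATP synthase, and 98 of the 27179 genes counted in these libraries were taken as such. They were chosen by symbol (Nduf, Sdh, Uqcr, Cox and Atp5 subunit names without processed pseudogenes, plus the 13 genes of the mitochondrial DNA), with at least 10 counts in 4 or more libraries. Of 101 matching genes, Cox4i2, Cox7b2 and Cox8c fell below that minimum. The members are 85 nuclear genes, 2 of them annotated as pseudogenes (Ndufs6b and Ndufa11b), and 13 mitochondrial genes. Complex I holds 41 nuclear and 7 mitochondrial members, complex II 4 nuclear ones only, complex III 8 and 1, complex IV 15 and 3, and complex V 17 and 2.

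The libraries are polyadenylated RNA of mouse neural stem and progenitor cells, cultured as neurospheres from the cortex and ganglionic eminences at E14.5. Null cells were Kat7lox/lox NesCreT/+ and intact cells Kat7+/+ NesCreT/+, so both genotypes carried the Nestin-driven Cre transgene, which is active in neural progenitors. Kat7 encodes the histone acetyltransferase KAT7 (HBO1). There were 4 libraries of each genotype in each state. Proliferating cells were taken after 3 passages and 3 days, and differentiating cells after 3 days on laminin in a neuron medium. The libraries come from 4 foetuses of each genotype, and no label says which of them share a foetus, so p-values measure the spread between libraries.

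Library totals were 16.8 to 47.9 M counts. Kat7 had 8 counts over the 4 null proliferating libraries, against 11565 over the 4 intact proliferating ones, and 1 count in null differentiating cells, against 12460 in intact differentiating cells. Marker genes of the cell types differed between groups in part. The genotypes overlapped in neuron markers in both states and in stem and progenitor markers in proliferating cells. The summed level of 8 stem and progenitor markers, all detected in each group, was 8127 to 8404 CPM (counts scaled to a common library size) in null proliferating and 7677 to 8314 in intact proliferating libraries, and 5234 to 6813 CPM in null differentiating and 3281 to 4318 in intact differentiating libraries. Astrocyte markers (7 genes) summed to 1182 to 1890 CPM in null and 388 to 782 in intact proliferating libraries, and to 3761 to 6148 CPM in null and 893 to 1588 in intact differentiating libraries. Oligodendrocyte lineage markers (8 genes) summed to 1769 to 2257 CPM in null and 2980 to 3191 in intact proliferating libraries, and to 1904 to 2366 in null and 3576 to 6934 in intact differentiating libraries. Neuron markers (8 genes) summed to 2277 to 2692 CPM in null differentiating and 2169 to 5894 CPM in intact differentiating libraries, and to 1048 to 1274 in null proliferating and 1003 to 1102 in intact proliferating libraries. The 5894 CPM belonged to intact differentiating library 1, and the other libraries of that group had at most 3192 CPM. The part of these cell types in the results that follow was not tested. Microglia, endothelium and blood markers stayed under 5 CPM in sum in every library.

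The respiratory chain passes electrons from NADH (complex I) and succinate (complex II) through ubiquinone, complex III and cytochrome c to oxygen at complex IV, and the proton gradient that this builds drives the ATP synthase, complex V. Complexes I, III, IV and V are built from nuclear and mitochondrial gene products together, whereas complex II is nuclear only. Nuclear members are transcribed one by one in the nucleus. The mitochondrial genes are copied as long joint transcripts from the circular mitochondrial DNA and are then cut apart, mostly at tRNAs that lie between them. Neural progenitors and their progeny are known to differ in their reliance on glycolysis and respiration.

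Per kilobase of gene length, the mitochondrial mRNAs were the more abundant ones. In intact proliferating cells the 13 mitochondrial members had a median level of 3673 CPM per kilobase, between 56.5 for ND6 and 9596 for ATP6, whereas the 85 nuclear members had a median of 129, between 0.0644 for Cox8b and 1131 for Atp5b, the catalytic beta subunit of the ATP synthase. The order of the mitochondrial mRNAs was ATP6, COX1 (6796), ATP8 (6267), COX2 (5046), ND1 (4542), COX3 (4275), CYTB (3673), ND2 (2328), ND3 (1974), ND4 (1613), ND4L (1169), ND5 (826) and ND6. ND6 is the only one of them encoded on the opposite strand.

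Both genotype and state moved the nuclear members, while the summed mitochondrial levels of the states overlapped within each genotype. The nuclear members summed to 17226, 16292, 16668 and 19696 CPM in the null proliferating libraries, against 12261, 13522, 13376 and 13823 CPM in the intact proliferating ones. In differentiating cells their sums were 9219, 9867, 9094 and 9883 CPM in null libraries and 7485, 8309, 7949 and 8319 CPM in intact libraries. None of the 4 groups overlapped, and the order from high to low was null before intact within each state and proliferating before differentiating. Bulk RNA cannot tell a lower level per cell from a smaller number of cells with a high level.

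The 13 mitochondrial members summed to 58196, 46267, 51394 and 47971 CPM in null proliferating libraries, against 28420, 45585, 48164 and 41318 CPM in intact proliferating libraries. In differentiating cells the sums were 60152, 58365, 51828 and 45451 CPM in null libraries, against 37985, 42399, 28431 and 41427 CPM in intact libraries. Intact proliferating library 1 and intact differentiating library 3 stood well below the other 3 libraries of their groups. Null exceeded intact libraries without overlap in differentiating cells only.

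**Figure D1:**
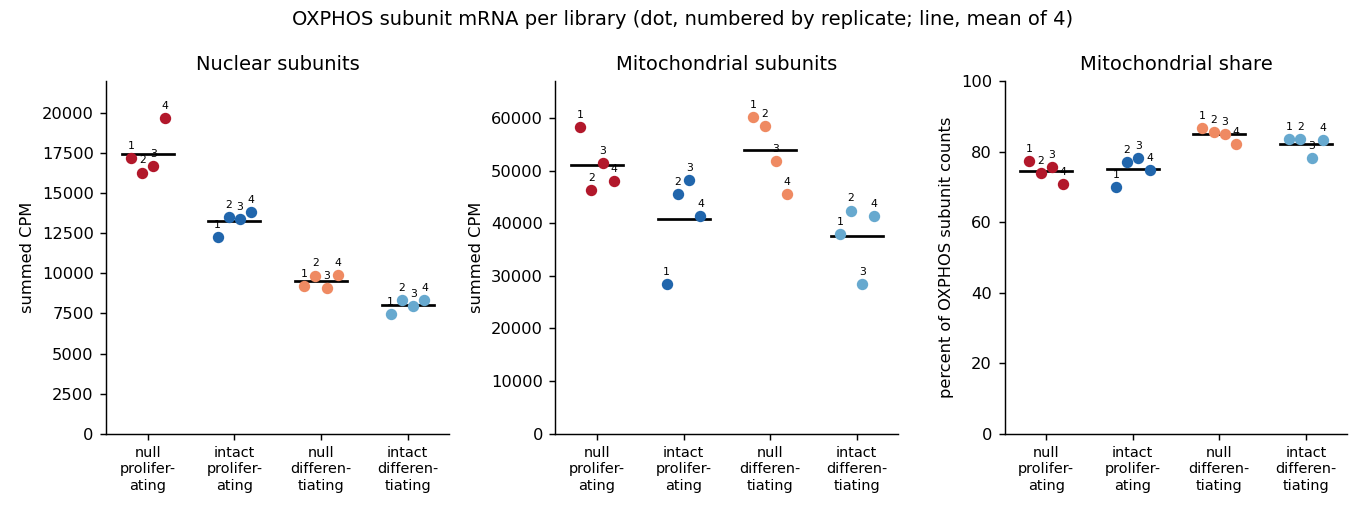
Summed CPM of the 85 nuclear members (left) and the 13 mitochondrial members (middle), and the mitochondrial share of all OXPHOS subunit counts in percent (right). Each dot is a library, labelled by its replicate number, and the line is the mean of 4. The nuclear sums step down over the 4 groups without overlap, while the mitochondrial sums of differentiating cells overlap those of the proliferating cells of their genotype.

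The mitochondrial share of OXPHOS subunit counts, which does not depend on how libraries are scaled, was 84.9 ± 1.94% in null differentiating cells and 74.4 ± 2.67% in null proliferating cells (SD, n = 4 each). In intact cells it was 82.1 ± 2.67% upon differentiation and 75.0 ± 3.72% before. Expressed as the log2 ratio of mitochondrial to nuclear counts, differentiation raised the ratio by 0.95 in null cells, where the lowest differentiating library (2.20) was above the highest proliferating one (1.76). The difference was 0.61 in intact cells, where differentiating libraries reached down to 1.84 and proliferating ones up to 1.85. Between genotypes the ratio overlapped in both states, with a difference of -0.06 for null minus intact proliferating cells and 0.28 for differentiating cells. Leaving out 1 library at a time, the difference in differentiating cells was 0.16 to 0.38, with 0.16 without intact differentiating library 3. A sum over members gets no p-value here.

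By complex, the same ratio was highest in complex IV and lowest in complex V. In null cells it was 4.01 ± 0.19 upon differentiation and 3.09 ± 0.18 in proliferating cells for complex IV, 2.64 ± 0.25 and 1.55 ± 0.23 for complex III, and 2.52 ± 0.23 and 1.90 ± 0.24 for complex I (SD, n = 4 each). For complex V the mitochondrial share was 66.6 ± 3.08% in null differentiating and 51.7 ± 4.21% in null proliferating cells, a log2 difference of the ratio of 0.90. In all 4 complexes the null differentiating libraries lay above the null proliferating ones without overlap. In intact cells the differences were 0.47, 0.64, 0.56 and 0.50 for complexes IV, III, I and V, each with overlap between libraries. Null minus intact differences in proliferating cells were 0.19 for complex I, -0.17 for complex III, -0.08 for complex IV and -0.31 for complex V, and the libraries of the genotypes overlapped in each. Leaving out 1 library at a time, they ranged over 0.04 to 0.31, -0.31 to -0.07, -0.18 to 0.01 and -0.48 to -0.22. In differentiating cells the null minus intact differences were 0.25 for complex I, 0.27 for complex III, 0.38 for complex IV and 0.08 for complex V. Without intact differentiating library 3 they were 0.10, 0.13, 0.27 and -0.04. The libraries overlapped for complexes I, III and V, and for complex IV the ranges met at 3.75.

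Loss of KAT7 went with higher nuclear OXPHOS mRNAs in proliferating cells. Of the 85 nuclear members, 62 rose and 1, Cox7a2l, fell at an adjusted p under 0.05 (edgeR's quasi-likelihood test, Benjamini-Hochberg over 15177 genes), where 19.0% of all genes tested rose and 19.7% fell. The median log2 fold change was 0.38 over nuclear members and -0.01 over all genes. In 60 nuclear members all 4 null libraries were above all 4 intact ones, a pattern that 19.2% of all genes showed. Rises covered 30 of 41 members of complex I, 4 of 4 of complex II, 8 of 8 of complex III, 8 of 15 of complex IV and 12 of 17 of complex V. The called rises were 0.26 to 0.68 in complex I, 0.32 to 0.55 in complex II, 0.30 to 0.73 in complex III and 0.26 to 0.81 in complex V on the log2 scale. In complex IV they were 0.33 to 0.77, apart from Cox8b, whose few counts are given further on. Against a minimum change of 1.5-fold, 1 nuclear member passed. Scaling by library size alone left 53 nuclear rises, and it lowered the share of rises among all calls to 36.7%, against 49.1% with the scaling used here.

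Complex II, the succinate dehydrogenase that also belongs to the tricarboxylic acid cycle, rose as a whole. Sdha, its flavin-bearing catalytic subunit, had 565, 560, 543 and 709 CPM in null proliferating libraries, against 381, 421, 412 and 408 CPM in intact ones (log2 fold change 0.55 ± 0.09 SE, edgeR adjusted p = 1.9e-04). The iron-sulfur subunit Sdhb had 235, 220, 236 and 254 CPM in null and 147, 165, 163 and 169 CPM in intact libraries (0.55 ± 0.06, adjusted p = 9.9e-06). The membrane anchors Sdhc and Sdhd rose by 0.37 and 0.32 on the log2 scale. All 4 null libraries exceeded all 4 intact ones for each of these genes.

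The largest called rises of complexes III, IV and V among the well-expressed genes were in small or accessory subunits as well as in the rotor ring. Uqcr10, a small subunit of complex III (chromosome 11, 4701968 to 4704344 in GRCm38), had 170, 161, 175 and 204 CPM in null and 97.0, 110, 108 and 113 CPM in intact proliferating libraries, and rose by 0.73 ± 0.08 (edgeR adjusted p = 5.9e-06). Uqcrq, which sits beside cytochrome b, rose by 0.72 ± 0.09. Cox5a, a matrix-facing subunit of complex IV (chromosome 9, 57517328 to 57532427), had 336, 282, 315 and 373 CPM in null and 171, 198, 194 and 205 CPM in intact libraries, a rise of 0.77 ± 0.09 (adjusted p = 9.8e-06). Atp5g1 is 1 of 3 nuclear genes for the c subunit, whose copies form the rotor ring of the ATP synthase, and it had 51.1, 38.0, 42.1 and 51.8 CPM in null and 24.2, 25.6, 25.1 and 29.5 CPM in intact libraries (0.81 ± 0.12, adjusted p = 8.2e-05). Its sister gene Atp5g3 rose by 0.54 ± 0.09, whereas Atp5g2, the remaining c subunit gene, had no genotype call in either state. Atp5o, the subunit that ties the stator stalk to the catalytic head, rose by 0.61 ± 0.06. In complex I, Ndufa5 and Ndufb9 rose most among called members, by 0.68 and 0.60.

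Cox7a2l, which encodes a factor for joining complexes III and IV into a supercomplex, went the other way. It had 118, 113, 117 and 104 CPM in null and 129, 135, 138 and 140 CPM in intact proliferating libraries, without overlap, and fell by 0.27 ± 0.06 (edgeR adjusted p = 0.00237).

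Among the mitochondrial members, 4 of 13 rose and 0 fell in null proliferating cells, where 19.0% of all genes tested rose and 19.7% fell. In 4 of the 13 all null libraries were above all intact ones, against 19.2% of all genes. The called rises were all in complex I: ND1 (0.52 ± 0.18, edgeR adjusted p = 0.0325), ND2 (0.62 ± 0.21, 0.0275), ND3 (0.54 ± 0.16, 0.0149) and ND5 (0.63 ± 0.16, 0.00600). These are core membrane subunits of the NADH dehydrogenase. ND5 had 2867, 2038, 2161 and 2262 CPM in null and 1135, 1685, 1797 and 1408 CPM in intact libraries. ND1 had 7183, 5905, 6629 and 5170 CPM in null and 2815, 4769, 5038 and 4764 CPM in intact libraries, of which library 1 was low. Without intact proliferating library 1, or without null proliferating library 1 or 3, 2 of the 4 calls remained, and ND1 and ND2 lost theirs. The subunits of complexes III, IV and V in the mitochondrial DNA had log2 fold changes of 0.28 (CYTB), 0.18 to 0.34 (COX1, COX2, COX3), 0.03 (ATP6) and 0.12 (ATP8), none of them called.

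**Figure D2:**
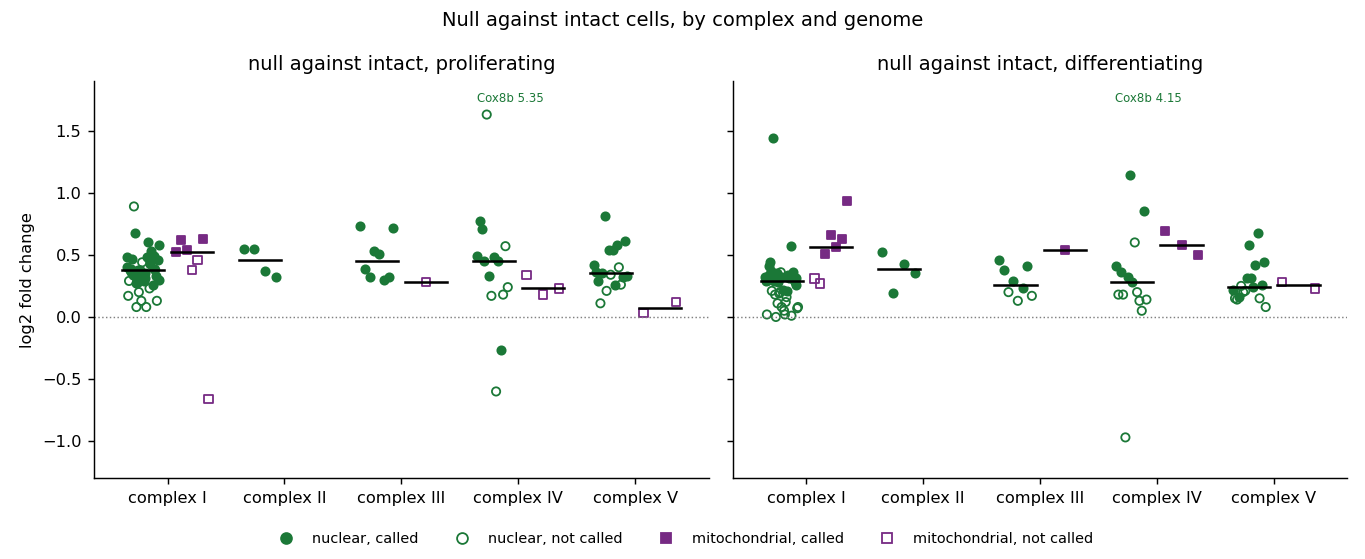
Log2 fold change of null against intact cells for each member by complex, in proliferating (left) and differentiating (right) cells. Circles are nuclear and squares mitochondrial members, filled where called (edgeR adjusted p under 0.05), and the line is the median. Cox8b lies beyond the axis and is written with its value. In proliferating cells all complexes have nuclear members above 0, and Cox7a2l is the single filled point below 0.

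Promoters of the members were searched for 3 words bound by factors known for respiratory genes, since so many nuclear members moved together. The words were GCGCA, any base and GCGC for NRF1, CCGGAAG for GABPA and other ETS factors, and GCCATNTT for YY1, each on both strands, in RefSeq windows of 300 bases that end shortly after the gene start (GRCm38.p6). A position that matched on both strands was counted once, and none of the words contains another. Of 85 nuclear members, 68 had a window. NRF1, ETS and YY1 words were each present in 25.0% of these, against 11.0%, 18.7% and 9.40% of 11316 tested genes with a window. At least 1 word was present in 64.7% of the members and in 33.4% of the tested genes. The excess was uneven over the complexes. At least 1 word was present in 63.6% of 33 members with a window in complex I and 100% of 3 in complex II. The shares were 60% of 5 in complex III, 33.3% of 12 in complex IV and 86.7% of 15 in complex V. ETS words were present in 12.1% of these members in complex I and in 25 to 66.7% in each other complex. A match is a description of the letters in the window and says nothing on whether a factor binds.

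The windows that follow are those of Sdha and Cox6a1 with several NRF1 words, of Ndufs3 with a pair of ETS words, of Atp5b with a YY1 word that begins 17 bases past the gene start, and of Cox7a2l, the member that fell, with none of the words. Among members that rose, Cox5a, Uqcr10 and Atp5g1 had windows with none of the words either, and Atp5o had an NRF1 word. The printed windows read 5′ to 3′ along the strand of the gene, with matched words in capitals.
Sdha: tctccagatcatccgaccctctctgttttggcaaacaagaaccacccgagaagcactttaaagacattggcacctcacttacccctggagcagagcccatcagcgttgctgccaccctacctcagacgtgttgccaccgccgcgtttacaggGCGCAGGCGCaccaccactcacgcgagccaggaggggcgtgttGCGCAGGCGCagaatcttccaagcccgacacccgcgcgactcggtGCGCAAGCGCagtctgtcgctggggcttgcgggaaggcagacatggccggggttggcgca
Ndufs3: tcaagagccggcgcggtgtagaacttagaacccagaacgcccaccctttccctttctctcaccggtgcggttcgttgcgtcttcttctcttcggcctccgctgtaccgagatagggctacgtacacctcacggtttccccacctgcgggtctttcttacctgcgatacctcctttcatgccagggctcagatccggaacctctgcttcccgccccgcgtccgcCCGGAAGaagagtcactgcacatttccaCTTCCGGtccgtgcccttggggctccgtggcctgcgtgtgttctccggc
Cox6a1: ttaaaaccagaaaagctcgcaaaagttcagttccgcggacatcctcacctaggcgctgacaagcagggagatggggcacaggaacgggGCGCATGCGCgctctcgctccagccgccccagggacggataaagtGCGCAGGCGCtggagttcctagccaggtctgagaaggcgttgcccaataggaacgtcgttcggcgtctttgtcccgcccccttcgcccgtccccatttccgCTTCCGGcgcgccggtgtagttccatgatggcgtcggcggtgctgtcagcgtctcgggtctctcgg
Atp5b: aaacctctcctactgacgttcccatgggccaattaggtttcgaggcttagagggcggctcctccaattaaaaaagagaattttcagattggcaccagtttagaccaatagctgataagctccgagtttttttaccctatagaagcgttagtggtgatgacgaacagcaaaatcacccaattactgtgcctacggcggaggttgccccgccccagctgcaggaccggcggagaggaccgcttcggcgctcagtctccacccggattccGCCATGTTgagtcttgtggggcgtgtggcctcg
Cox7a2l: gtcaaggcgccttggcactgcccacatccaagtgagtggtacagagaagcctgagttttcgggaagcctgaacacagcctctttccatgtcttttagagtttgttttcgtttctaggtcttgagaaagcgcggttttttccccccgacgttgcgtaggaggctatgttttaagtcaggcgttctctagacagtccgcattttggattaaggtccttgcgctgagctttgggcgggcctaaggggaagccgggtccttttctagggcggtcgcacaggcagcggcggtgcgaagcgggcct
The promoters of Sdha (chr13:74350191-74350490, minus strand), Ndufs3 (chr2:90904672-90904971, minus strand), Cox6a1 (chr5:115348909-115349208, minus strand), Atp5b (chr10:128083057-128083356, plus strand) and Cox7a2l (chr17:83514284-83514583, minus strand) lie in GRCm38.p6. Cox6a1, the common isoform of a small complex IV subunit, rose by 0.45 ± 0.09 in null proliferating cells (edgeR adjusted p = 0.00130), and Ndufs3, a core subunit of the peripheral arm of complex I, by 0.47 ± 0.09 (adjusted p = 5.9e-04). Atp5b rose by 0.36 ± 0.07 (adjusted p = 0.00138), with 2731, 2637, 2593 and 2966 CPM in null and 1895, 2192, 2193 and 2223 CPM in intact libraries.

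In differentiating cells too, many nuclear members and several mitochondrial ones were higher in the null libraries. Of the nuclear members, 48 of 85 rose and 0 fell, where 24.3% of all genes tested rose and 22.0% fell. At an unadjusted edgeR p under 0.05 the count of falls was also 0. The median log2 fold change was 0.28 for nuclear members, 0.54 for mitochondrial members and 0.04 for all genes. Null libraries were all above intact ones in 59 nuclear members, against 24.9% of all genes. Rises covered 22 of 41 members of complex I, 4 of 4 of complex II, 5 of 8 of complex III, 7 of 15 of complex IV and 10 of 17 of complex V. Scaling by library size alone left 29 nuclear rises, and the share of rises among all calls was then 39.4%, against 52.5%.

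Sdha had 326, 344, 329 and 361 CPM in null and 208, 251, 232 and 256 CPM in intact differentiating libraries (0.52 ± 0.09, edgeR adjusted p = 2.0e-04), and Sdhc rose by 0.43 ± 0.09. Ndufs3 showed the highest rise of the well-expressed nuclear members of complex I, with 62.8, 64.1, 57.5 and 64.7 CPM in null and 41.9, 40.2, 43.8 and 41.8 CPM in intact libraries (0.57 ± 0.09, adjusted p = 9.2e-05). In complex III, Uqcr10 rose by 0.46 ± 0.08 and Uqcrh, the hinge protein of the cytochrome c site, by 0.41 ± 0.10. In complex V, Atp5h of the stator stalk rose by 0.58 ± 0.14 and Atp5l, a membrane subunit, by 0.68 ± 0.17. Of the Atp5l transcript windows of 75 bases, 65.9% also occur in other genes, so its reads cannot be placed with certainty.

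Mitochondrial rises in differentiating cells numbered 9 of 13, where 24.3% of all genes tested rose. Null libraries were all above intact ones in 6 of the 13, 2 of them in complex I, against 24.9% of all genes. The called rises were ND3, ND4, ND4L, ND5 and ND6 of complex I, CYTB of complex III and all 3 mitochondrial subunits of complex IV. COX1, the catalytic subunit that binds oxygen, had 17152, 16087, 14410 and 13016 CPM in null and 9715, 10431, 7336 and 10078 CPM in intact libraries, without overlap (0.69 ± 0.16, edgeR adjusted p = 0.00214). ND4 had 5074, 5066, 4465 and 3608 CPM in null and 3078, 3225, 2175 and 3047 CPM in intact libraries (0.66 ± 0.17, adjusted p = 0.00450). COX2 and COX3 rose by 0.58 ± 0.18 and 0.50 ± 0.13, and CYTB, the cytochrome b at the core of complex III, by 0.54 ± 0.18. ND1 (0.31), ND2 (0.27), ATP6 (0.28) and ATP8 (0.23) were not called. Without intact differentiating library 3, the low one, 4 of the 9 calls remained (adjusted p of COX2 0.0515, of ND3 0.0588).

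Between the states, 40 nuclear members rose in null cells in both, 22 in proliferating cells only and 8 in differentiating cells only, which alone does not show that the response differed. Joint counts over 2 comparisons, here and below, were not made over all genes, so no such share stands beside them. The comparisons in the 2 states share no library. Over the 85 nuclear members their log2 fold changes had a Spearman correlation of 0.33, and over all 15177 genes tested 0.49, given as a description across genes that are not independent. Over the 13 mitochondrial members it was -0.04. No genotype call in either state was made for 14 nuclear members, among them Cox7b and Cox8a of complex IV and the low isoforms Cox6a2 and Cox7a1.

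Differentiation lowered nearly all nuclear members in both genotypes. In null cells 75 of 85 fell and 1, Ndufa4l2, rose, where 34.4% of all genes tested fell and 34.6% rose. In intact cells 74 of 85 fell and 1, Ndufa1, rose, where 35.3% of all genes fell and 36.7% rose. The median log2 fold change was -0.73 in null and -0.63 in intact cells, against 0.02 over all genes in each. Differentiating libraries were all below proliferating ones in 70 nuclear members in null cells, against 33.2% of all genes, and in 73 in intact cells, against 31.8%. In both genotypes 71 of the 85 fell, a joint count that was not made over all genes. Against a minimum change of 1.5-fold, 40 falls passed in null and 25 in intact cells. Stem and progenitor markers fell with these genes (5234 to 6813 CPM in null differentiating against 8127 to 8404 in null proliferating libraries), and their part in the result was not tested.

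**Figure D3:**
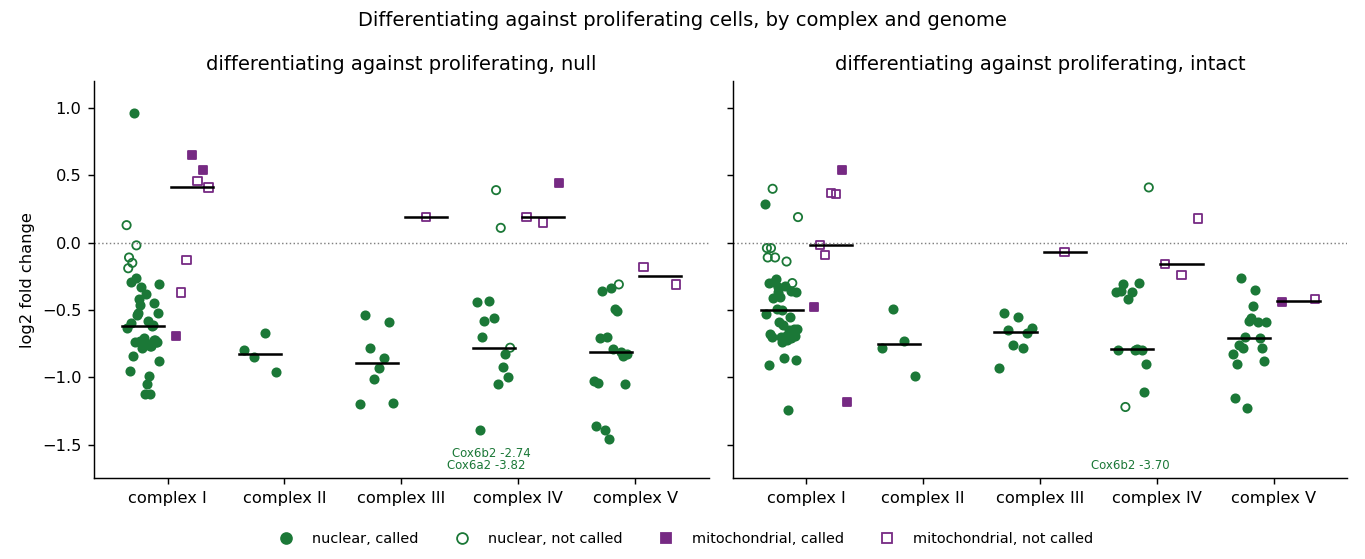
Log2 fold change of differentiating against proliferating cells for each member by complex, in null (left) and intact (right) cells. Circles are nuclear and squares mitochondrial members, filled where called (edgeR adjusted p under 0.05), and the line is the median. Members beyond the axis are written with their value. The nuclear medians lie between -0.50 and -0.90 in every complex, while the mitochondrial medians lie between -0.43 and 0.41.

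Complex V fell most when its nuclear members are summed, to 3482 ± 171 CPM in null differentiating cells, against 7465 ± 486 CPM in null proliferating cells, a ratio of 0.466. In intact cells the sums were 3009 ± 135 and 5694 ± 342 CPM, a ratio of 0.528 (SD, n = 4 each). For complexes I, II, III and IV the ratios were 0.633, 0.570, 0.534 and 0.615 in null and 0.689, 0.595, 0.619 and 0.678 in intact cells. A sum gives abundant genes such as Atp5b the most weight. By the median log2 fold change over members, complex III fell most in null cells (-0.90, against -0.81 for complex V). In intact cells the lowest median was that of complex IV (-0.79, against -0.71 for complex V). Atp5b had 1040, 1121, 986 and 1105 CPM in null differentiating libraries, against 2731, 2637, 2593 and 2966 CPM in null proliferating ones (-1.36 ± 0.08, edgeR adjusted p = 1.3e-09). In intact cells it had 905, 962, 957 and 1009 CPM upon differentiation, against 1895, 2192, 2193 and 2223 CPM before (-1.15 ± 0.08, adjusted p = 4.8e-09). The c subunit gene Atp5g3 fell by 1.46 in null and by 1.23 in intact cells on the log2 scale.

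Falls in the other complexes were led by Ndufc2 in complex I (-1.12 in null and -1.24 in intact cells, with Ndufb6 also at -1.12 in null cells), Sdhd in complex II (-0.96 and -0.99) and Uqcr10 in complex III (-1.20 and -0.93). In complex IV, Cox5a fell by 1.39 in null cells and by 0.80 in intact cells, and Cox7a2 by 1.05 and 0.79. Cox4i1, the common isoform of the regulatory subunit IV, fell by 0.44 and 0.37. The nuclear members that fell in neither genotype were Cox8b, Ndufa1, Ndufa11, Ndufa11b, Ndufa3, Ndufa4l2 and Ndufa7, 7 genes listed here after their values were seen.

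The mitochondrial members divided, with 3 rises and 1 fall of 13 in null cells and 1 rise and 3 falls in intact cells. Of all genes tested, 34.6% rose and 34.4% fell in null cells, and 36.7% rose and 35.3% fell in intact cells. The mitochondrial members were thus called less often than genes at large. In intact cells the libraries of the states overlapped for each of the 13. In null cells ND4 (0.65 ± 0.17, edgeR adjusted p = 0.00275), ND5 (0.54 ± 0.16, 0.00737) and COX3 (0.44 ± 0.13, 0.00708) rose upon differentiation, and ND1 fell (-0.69 ± 0.18, 0.00319). In intact cells ND5 rose (0.54 ± 0.16, 0.00701), while ND1 (-0.48 ± 0.18, 0.0262), ATP6 (-0.44 ± 0.19, 0.0432) and ND6 (-1.18 ± 0.36, 0.00790) fell. ND1 had 4444, 4013, 3687 and 3315 CPM in null differentiating libraries, against 7183, 5905, 6629 and 5170 CPM in null proliferating ones, without overlap. The ATP6 call in intact cells held in 10 of 26 alternative settings. Leaving out intact proliferating library 2, 3 or 4, or intact differentiating library 3, left 1 of the 3 falls in intact cells.

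Arranged along the mitochondrial DNA, the values upon differentiation were not monotone in gene order. The 2 first genes, ND1 (positions 2751 to 3707) and ND2 (3914 to 4951), had log2 fold changes of -0.69 and -0.37 in null and of -0.48 and -0.02 in intact cells upon differentiation. COX1, COX2, ATP8 and ATP6, which follow, had 0.19, 0.15, -0.31 and -0.18 in null and -0.16, -0.24, -0.42 and -0.44 in intact cells. COX3 had 0.44 in null and 0.18 in intact cells, and ND3 had -0.13 and -0.09. ND4L, ND4 and ND5 (9877 to 13565) had 0.46, 0.65 and 0.54 in null and 0.36, 0.37 and 0.54 in intact cells. Without ND6, the Spearman correlation of gene order with log2 fold change over 12 genes was 0.75 in null and 0.66 in intact cells. For null against intact cells it was 0.08 in proliferating and 0.38 in differentiating cells. These are descriptions over genes that share their libraries and transcripts, and they carry no p-value. The last gene, CYTB (14145 to 15288), had 0.19 in null and -0.07 in intact cells.

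**Figure D4:**
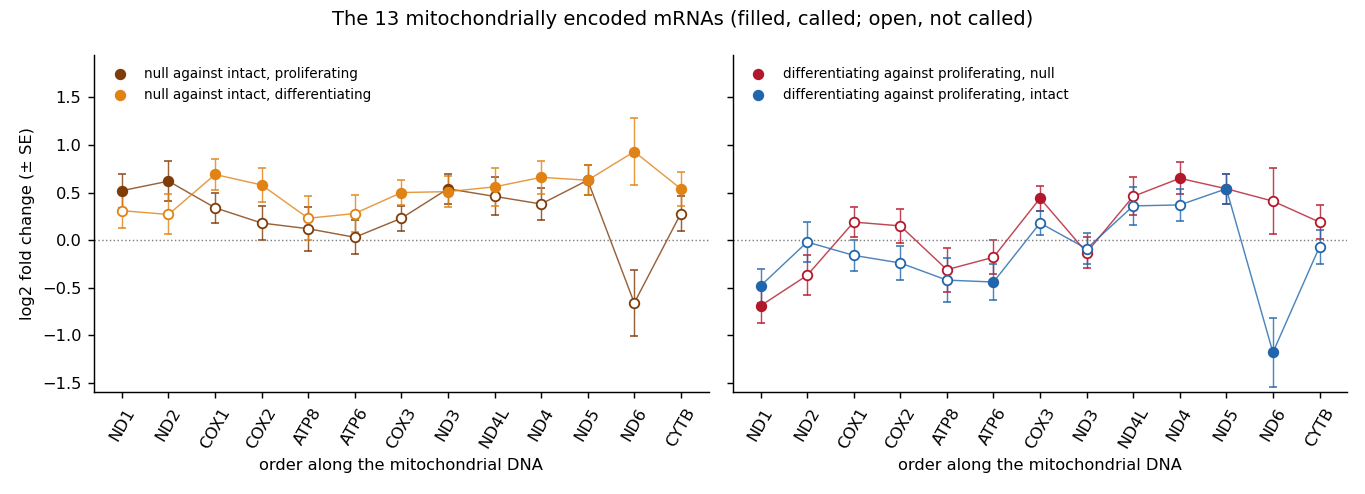
Log2 fold change with its SE for the 13 mitochondrial mRNAs in their order along the mitochondrial DNA, for null against intact cells (left) and for differentiating against proliferating cells (right). Filled points are called (edgeR adjusted p under 0.05) and open ones not. In the right panel ND1 is below 0 and ND4 and ND5 above 0 in both genotypes, and ND6 departs from its neighbours in intact cells.

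Mitochondrial genes overlap in places, so a read cannot always be given to a single gene. ATP8 and ATP6 share 43 bases, shown here since both genes are known to lie on 1 joint mRNA. In this stretch the capitals mark the start codon of ATP6 at one end and the stop codon of ATP8 at the other:
ATP8 and ATP6 overlap: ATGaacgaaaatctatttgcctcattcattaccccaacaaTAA
The stretch lies at chrM:7927-7969 in GRCm38 on the plus strand. ATP8 and ATP6 had close values in the genotype and differentiation comparisons (0.12 and 0.03, 0.23 and 0.28, -0.31 and -0.18, -0.42 and -0.44). The order is null over intact when proliferating, null over intact when differentiating, null differentiation, intact differentiation. Their interaction values were 0.11 and 0.26. COX1 and COX2, which do not overlap, were also close in the same order (0.34 and 0.18, 0.69 and 0.58, 0.19 and 0.15, -0.16 and -0.24). Close values were thus not particular to overlapping genes. ND4L and ND4 share 7 bases and ND5 and ND6 share 14 on opposite strands. Copies of mitochondrial genes also lie in nuclear chromosomes. Of the transcript windows of 75 bases, 97.8 to 99.9% of ND3, ND4L, COX2, COX3 and ATP6, 61.5% of ND4, 39.8% of COX1 and 5.71% of ND2 and 1.66% of ND5 occur in another annotated transcript, and none of those of ND1, ND6, CYTB and ATP8 do. With the 63 nuclear and 6 mitochondrial members that share under 10% of their windows, the rise in the log2 ratio of mitochondrial to nuclear counts upon differentiation was 0.75 in null and 0.64 in intact cells, and the null minus intact difference was 0.08 in proliferating and 0.19 in differentiating cells. In that subset 47 nuclear members rose in null proliferating cells and 38 in null differentiating cells, and 3 of the 6 mitochondrial members rose in each state. Upon differentiation the subset's mitochondrial median log2 fold change was -0.06 in null and -0.24 in intact cells. Its 6 mitochondrial genes (ND1, ND2, ND5, ND6, CYTB and ATP8) include none of complex IV.

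Differences between the genotypes in their response to differentiation were tested directly, as the null response minus the intact response. Of the 85 nuclear members 9 had a lower and 1 a higher response in null cells, where 9.93% of all genes tested were lower and 12.7% higher. With the settings used here, the share of nuclear members with a lower response was near that of all genes. DESeq2 and a stricter filter called more lower nuclear members, as given at the end. Among the mitochondrial members ND6 alone was called. The lower ones were Ndufb8 (-0.36), Ndufb9 (-0.43), Ndufs4 (-0.25) and Ndufv3 (-0.50) of complex I, Sdhb (-0.36) of complex II, Uqcrc2 (-0.38) and Uqcrq (-0.56) of complex III, Cox5a (-0.59) of complex IV and Atp5g1 (-0.61) of complex V. Cox5a had 123, 124, 119 and 132 CPM in null differentiating and 118, 119, 103 and 101 CPM in intact differentiating libraries (interaction -0.59 ± 0.12, edgeR adjusted p = 0.00335). Uqcrq had 91.3, 94.9, 81.8 and 87.8 CPM in null and 70.9, 80.7, 83.6 and 81.3 CPM in intact differentiating libraries, against 216, 179, 186 and 228 CPM in null and 110, 127, 119 and 134 CPM in intact proliferating ones (interaction -0.56 ± 0.12, adjusted p = 0.00516).

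Cox7a2l had the single higher response (0.40 ± 0.08, edgeR adjusted p = 0.00344). It had 117, 129, 118 and 122 CPM in null differentiating libraries, against 118, 113, 117 and 104 CPM in null proliferating ones (0.11 ± 0.06, adjusted p = 0.124). In intact cells it had 101, 115, 113 and 114 CPM upon differentiation, against 129, 135, 138 and 140 CPM before, and fell by 0.30 ± 0.06 (adjusted p = 3.7e-04). ND6 had 31.2, 31.5, 15.0 and 20.7 CPM in null differentiating, 20, 15.5, 16.9 and 21.6 in null proliferating, 11.4, 18.2, 7.61 and 14.4 in intact differentiating and 13.1, 43.6, 40.4 and 20.1 in intact proliferating libraries (interaction 1.59 ± 0.50, adjusted p = 0.0331). Its libraries overlapped between all groups, and the call was lost when any of 7 libraries was left out. No source used here says whether strand was used in counting, and reads of ND6 cannot then be told apart from those of the transcript that runs over it on the other strand.

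Several subunits of complex IV exist as a common form and a form known from muscle, testis or other tissues, and those tissue forms had low levels here. Cox8b, the heart and skeletal muscle form of subunit VIII in rodents (chromosome 7, 140898942 to 140900446), had 12, 4, 12 and 115 counts in null and 1, 0, 0 and 1 counts in intact proliferating libraries. That is 143 against 2 counts, a ratio of 54.0 after scaling (exact 95% counting interval 14.7 to 450), with most null counts in library 4. Without that library it is 28 against 2 counts, a ratio of 16 (4.03 to 138), an alternative chosen after the values were seen. In differentiating cells Cox8b had 13, 33, 22 and 26 counts in null and 0, 3, 0 and 1 counts in intact libraries, without overlap (4.15 ± 1.05, edgeR adjusted p = 0.00352). The level stayed at 0.247 to 3.26 CPM in null libraries, against 162 to 430 CPM for the common form Cox8a. Cox8b reached the membership minimum of 10 counts in 7 libraries, all of them null, and no intact library had more than 3. It became a member through the null libraries alone, which favoured a null excess in its ratio, overlap and calls. It is counted among the 8 and 7 rises of complex IV in proliferating and differentiating cells. Markers of muscle (5 genes) summed to 11.8 to 19.2 CPM in null and 1.20 to 4.12 CPM in intact differentiating libraries, and to 11.7 to 33.2 CPM in null and 14.1 to 19.0 in intact proliferating libraries, with the highest value in null library 4. Their part in the Cox8b values was not tested.

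Cox6b2, known from testis, was largely lost upon differentiation in both genotypes. It had 2.48, 1.65, 2.21 and 3.02 CPM in null differentiating libraries, against 11.3, 14.1, 14.6 and 22.3 CPM in null proliferating ones (-2.74 ± 0.30, edgeR adjusted p = 1.1e-06). Intact cells had 1.37, 1.15, 0.738 and 0.959 CPM upon differentiation, against 7.41, 18.5, 16.8 and 12.8 CPM before (-3.70 ± 0.32, adjusted p = 1.1e-07). Null exceeded intact differentiating libraries (1.14 ± 0.31, adjusted p = 0.00762). Its common partner Cox6b1 fell by 0.43 in null and by 0.42 in intact cells.

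Cox6a2, the heart and skeletal muscle form of subunit VIa, had 0, 0.123, 0.0426 and 0.435 CPM in null differentiating libraries, against 3.42, 1.42, 1.96 and 1.84 CPM in null proliferating ones (-3.82 ± 0.93, edgeR adjusted p = 0.00177). In intact cells it had 0.859, 0.186, 0 and 0.0899 CPM upon differentiation, against 0.145, 0.541, 0.783 and 1.31 CPM before, with overlap and no call. Ndufa4l2, a hypoxia-inducible relative of Ndufa4, had 0.942, 0.858, 0.468 and 0.580 CPM in null and 0.114, 0.372, 0.388 and 0.180 CPM in intact differentiating libraries (1.44 ± 0.38, adjusted p = 0.00567). Ndufa4, which the symbol rule counts in complex I and which is now placed in complex IV, fell by 0.84 in null and by 0.70 in intact cells upon differentiation. Cox7a1, the muscle form of subunit VIIa, stayed at 0.247 to 1.14 CPM in all libraries. The excluded forms had at most 21 summed counts in a group for Cox4i2, 3 for Cox7b2 and 2 for Cox8c.

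**Figure D5:**
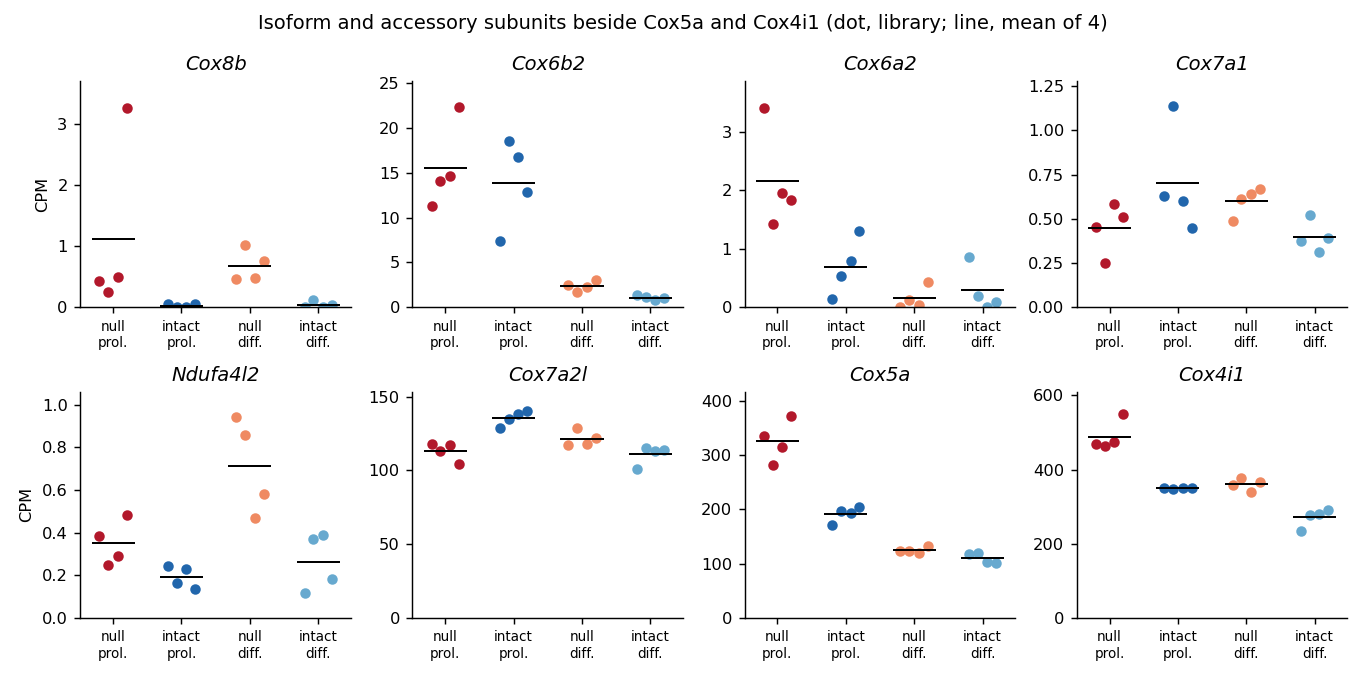
CPM of 6 isoform or accessory subunits beside Cox5a and Cox4i1 in the 4 groups, each with its own axis from 0. Each dot is a library and the line is the mean of 4. Cox6b2 is high in both proliferating groups, Cox8b is near 0 in intact cells, and in the proliferating state Cox7a2l is lower in the null libraries.

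The tricarboxylic acid cycle, which feeds the chain, followed the nuclear subunits. Of its 13 genes on the list, 11 rose in null proliferating and 10 in null differentiating cells with 0 falls. All 13 fell upon differentiation in each genotype. Subunits of an enzyme, such as Idh3a, Idh3b and Idh3g, are counted as separate genes. The median log2 fold changes were 0.40, 0.37, -0.93 (null) and -0.74 (intact). Ogdh, a subunit of the oxoglutarate dehydrogenase complex, averaged 370 ± 38.6 CPM in null proliferating and 200 ± 6.90 CPM in intact proliferating cells (0.88 ± 0.07, edgeR adjusted p = 2.7e-07). Cs, the citrate synthase that opens the cycle, fell by 1.34 in null and by 1.30 in intact cells upon differentiation. A further list holds electron carriers and subunits outside the symbol rule, which the sums and counts by complex above leave out. On it, Cyc1 (cytochrome c1) and Cycs (cytochrome c) rose by 0.54 and 0.47 in null proliferating cells. Upon differentiation these genes fell by 1.47 and 1.89 in null and by 1.09 and 1.33 in intact cells. Of the 6 tested genes of that list, 4 rose and 1 fell in null proliferating cells, 1 rose and 2 fell in null differentiating cells, and 5 fell and 1 rose upon differentiation in each genotype.

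Mitochondrial ribosomal proteins, which translate the 13 mitochondrial mRNAs, shared the fall with differentiation: 71 of 78 fell and 0 rose in null cells, and 71 fell and 0 rose in intact cells. At the genotype level 19 rose and 3 fell in null proliferating cells, where 19.0% of all genes rose, and 19 rose and 5 fell in null differentiating cells, where 24.3% of all genes rose. The share of rises on this list was thus near that of all genes in differentiating cells. Mrps6 rose by 1.22 and 1.34 in these comparisons. Assembly factors (40 tested) had 15 rises and 2 falls in null proliferating cells, 8 rises and 7 falls in null differentiating cells, and upon differentiation 27 falls and 3 rises in null and 21 falls and 4 rises in intact cells. Within this list Lyrm7, which delivers the Rieske iron-sulfur protein of complex III, averaged 25.1 ± 5.45 CPM in null proliferating and 4.84 ± 0.455 CPM in intact proliferating cells (2.37 ± 0.20, edgeR adjusted p = 8.8e-07). Ndufaf3, an assembly factor of complex I, averaged 2.77 ± 0.489 CPM in null proliferating and 10.4 ± 2.82 CPM in intact proliferating cells (-1.90 ± 0.25, adjusted p = 4.0e-05), and fell by 3.30 in null differentiating cells.

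Genes for mitochondrial DNA maintenance and transcription (16) had 2 rises and 4 falls in null proliferating cells and 2 rises and 2 falls in null differentiating cells. Upon differentiation 6 rose and 5 fell in null and 5 rose and 7 fell in intact cells. Polg, the mitochondrial DNA polymerase, fell by 1.07 in intact cells upon differentiation, and its response differed between the genotypes (interaction 0.67 ± 0.12, edgeR adjusted p = 0.00123). Genes of mitochondrial RNA processing and stability (18) had 5 rises and 1 fall in null proliferating and 6 rises and 0 falls in null differentiating cells, and upon differentiation 12 falls and 2 rises in null and 15 falls and 1 rise in intact cells. Lrpprc, which stabilises mitochondrial mRNAs, averaged 152 ± 5.82 CPM in null proliferating and 92.6 ± 5.67 CPM in intact proliferating cells (0.72 ± 0.07, adjusted p = 3.5e-06), and rose by 0.32 in null differentiating cells.

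Among 11 nuclear regulators of respiratory genes, 2 rose and 4 fell in null proliferating cells and 5 rose and 1 fell in null differentiating cells, while upon differentiation 6 fell and 2 rose in null and 9 fell and 1 rose in intact cells. All counts of these lists stand beside the shares of all genes tested. In null proliferating cells 19.0% rose and 19.7% fell, and in null differentiating cells 24.3% rose and 22.0% fell. Upon differentiation 34.6% rose and 34.4% fell in null cells, and 36.7% rose and 35.3% fell in intact cells. Ppargc1a, the coactivator PGC-1α, averaged 103 ± 11.8 CPM in null proliferating and 59.5 ± 9.60 CPM in intact proliferating cells (0.79 ± 0.11, edgeR adjusted p = 7.7e-05). Differentiating cells had 42.2 ± 2.61 CPM when null and 23.4 ± 2.20 CPM when intact (0.85 ± 0.11, adjusted p = 3.1e-05; SD, n = 4 each). Nrf1, whose protein binds the word counted above, was lower in null proliferating cells (-0.24 ± 0.08, edgeR adjusted p = 0.0273). In null differentiating cells it was higher (0.35 ± 0.08, adjusted p = 0.0024). It fell by 0.69 upon differentiation in intact cells, with a response that differed between the genotypes (interaction 0.60 ± 0.12, adjusted p = 0.00210). Gabpa and Yy1 had no genotype call in either state. Myc, a growth regulator, fell by 0.67 in null proliferating cells.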

How the data were processed

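Each of the 16 libraries has a table of counts per gene that the authors deposited. The submitters' processing notes name bcl2fastq, featureCounts and the mm10 build. The sources used here do not give the aligner, the annotation, the strand setting or the treatment of reads with several matches. Identifiers were matched to symbols for 25275 of 27179 genes. The counts were fitted with edgeR 4.0.16 in R 4.3.3 (1 mean per group, TMM scaling, filterByExpr with a minimum count of 10), and quasi-likelihood p-values were adjusted by Benjamini-Hochberg over all 15177 genes tested and called under 0.05. All 98 members passed that filter. CPM values use the TMM-scaled library sizes, and values per kilobase use the deposited gene length. Intervals cover counting error only.

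The text names all mitochondrial members, complex II, the isoform pairs of complex IV and their relatives, up to 2 called nuclear members with the highest and the lowest change in each complex and comparison, and up to 3 called genes of each context list; others were chosen after their values were seen. The members and lists were chosen with earlier results of these data known. Shared sequence was counted as 75-base windows of GENCODE transcripts found in another gene. Promoter windows are from RefSeq. Alternatives were DESeq2 1.42.0, other scalings and filters, a minimum fold of 1.5, replicate blocks, only the groups compared, and leaving out each library. The script was tested on simulated counts.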

Additional observations from a re-analysis of the deposited data

Results flagged for a closer look

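The response to differentiation differed between genotypes, as null minus intact on the log2 scale with an edgeR adjusted p under 0.05, for Ndufb8 (-0.36), Ndufb9 (-0.43), Ndufs4 (-0.25), Ndufv3 (-0.50), Sdhb (-0.36), Uqcrc2 (-0.38), Uqcrq (-0.56), Cox5a (-0.59), Atp5g1 (-0.61), Cox7a2l (0.40) and the mitochondrial ND6 (1.59). Of all genes tested 9.93% had a lower and 12.7% a higher response. With the settings used here the 85 nuclear members, with 9 lower and 1 higher, were near the first share and below the second.

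A library stood apart from the other 3 of its group, by Dixon's test, in 19 of the values checked (204 for 51 named genes in 4 groups, and 12 sums). Chance flags about 1 in 20 groups. Null proliferating library 4 was high for Atp5g3 (701 CPM), Cox4i1 (549), Cox7c (77.3), Cox8b (3.26), Ndufa1 (57.2), Ndufs3 (118), Sdha (709), Sdhc (307) and Uqcrh (300 CPM). This library also had the highest sums of astrocyte markers (1890 CPM) and muscle markers (33.2 CPM) in its group, and their part in these values was not tested. Null proliferating library 1 was high for COX1 (15438 CPM). Intact proliferating library 1 was low for Atp5b (1895 CPM) and ND1 (2815 CPM). Intact proliferating library 4 stood apart for Atp5l (10.9 CPM) and Cox6a1 (214 CPM). Intact differentiating library 3 was low for ND2 (1542 CPM), ND4 (2175), ND5 (1693) and the mitochondrial share of OXPHOS counts (78.1%), and library 4 of that group stood apart for Ndufa4 (142 CPM).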

How the results depend on the processing

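Over all alternatives, no call of a member turned its direction. Of the called nuclear members, 54 of 63 kept their call under every alternative but the minimum fold in null against intact proliferating cells, 28 of 48 in differentiating cells, 72 of 76 for differentiation in null and 69 of 75 in intact cells, and 8 of 10 for the interaction. For mitochondrial members the shares were 2 of 4, 4 of 9, 4 of 4, 2 of 4 and 0 of 1. Against a minimum fold of 1.5, the genotype counts were 1 nuclear rise, 0 nuclear falls and 0 mitochondrial rises in proliferating cells, and 2 and 0 rises in differentiating cells; differentiation gave 40 nuclear falls in null and 25 in intact cells with 0 other calls, and the interaction 0. Library size scaling left 29 nuclear rises in differentiating cells, 2 nuclear rises in null and 3 mitochondrial rises in intact cells upon differentiation; the log2 difference of the summed nuclear level was then 0.16 for null against intact differentiating cells and -0.65 for differentiation in intact cells. DESeq2 gave 2 mitochondrial rises in intact and 0 nuclear rises in null cells upon differentiation and 18 lower nuclear interactions, and its size factors in edgeR also 2 mitochondrial rises. The stricter filter gave 2 nuclear and 2 mitochondrial rises in intact and 0 nuclear rises in null cells, and 20 lower nuclear interactions. Over all genes, DESeq2 called 4063 interactions, 49.4% of them higher, and the stricter filter 3299, 46.9% of them higher. With the settings used here there were 3442, 56.2% of them higher. With only the groups compared, 1 mitochondrial fall was left in intact cells and 2 were called in null cells. Without the 2 intact libraries numbered 1, the counts were 2 mitochondrial rises and 1 fall in proliferating cells, 2 nuclear rises in intact cells upon differentiation and 2 higher nuclear interactions. Leaving out 1 library at a time, mitochondrial rises ranged from 2 to 4 and falls from 0 to 1 in null against intact proliferating cells (2 rises without null library 1 or 3 or intact library 1), and rises from 4 to 9 in differentiating cells (4 without intact library 3); in intact cells upon differentiation, nuclear rises ranged from 0 to 1, mitochondrial rises from 1 to 3 and falls from 1 to 5 (5 without intact proliferating library 1); in null cells nuclear rises ranged from 0 to 2; higher interactions ranged from 1 to 4 in nuclear (4 without null proliferating library 4) and from 0 to 1 in mitochondrial members. Nuclear rises ranged from 57 to 70 and from 36 to 59 in the 2 genotype comparisons, with 57 and 59 without null proliferating library 4. The null minus intact difference of the log2 mitochondrial to nuclear ratio in proliferating cells ranged from -0.18 to 0.03. The cause of these shifts was not tested. The labels do not say that replicate numbers pair libraries, and residuals of same-numbered libraries correlated between -0.231 and 0.126; with the replicate block, nuclear rises upon differentiation in null cells were 0, and with a block per isolate the mitochondrial interaction count was 0.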
